A study of Mus musculus with 4 samples.

Results

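The 10 genes described here are 8 Toll-like receptors (Tlr1, Tlr2, Tlr4, Tlr6, Tlr7, Tlr8, Tlr9 and Tlr13), the co-receptor Cd14 and the adaptor Myd88, out of 18193 genes measured. They were taken by name, and all of their probe sets on the array, 15 of 45037, were used. RNA came from mouse acute myeloid leukaemia cells of the bone marrow on the C57BL/6 background. The leukaemia had been made by introducing HoxA9 and Meis1 into marrow cells that carried the reporter NS-GFP, a green fluorescent protein gene driven by a stretch of the nucleostemin promoter, so all 4 groups share both introduced genes and the reporter. The groups are 4 sorted fractions of these cells. Cells without c-Kit were sorted at a low and a middle level of NS-GFP (named c-Kit- low and c-Kit- middle), and cells with c-Kit at a middle and a high level (named c-Kit+ middle and c-Kit+ high). Each fraction was measured once, on 1 Affymetrix array. How many mice or leukaemias fed each fraction, and the animals' age, are not given in the sources used here.

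Toll-like receptors are sensors of microbial molecules carried by myeloid cells. Tlr1, Tlr2, Tlr4 and Tlr6 sit on the cell surface. Tlr2 pairs with Tlr1 or Tlr6 to bind bacterial lipopeptides, and Tlr4 binds lipopolysaccharide handed over by Cd14. Tlr7, Tlr8, Tlr9 and Tlr13 sit in endosomes and sense nucleic acids, namely single-stranded RNA for Tlr7 and Tlr8, unmethylated CpG DNA for Tlr9 and bacterial ribosomal RNA for Tlr13. Myd88 is the adaptor on which all 8 of these receptors signal toward NF-kappaB and interferon regulatory factors.

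Promoter sequences are shown for an endosomal and a surface receptor with a wide range over the sort (Tlr13 and Tlr2), for the receptor that went the other way (Tlr9) and for the shared adaptor (Myd88). Each window runs from 250 bases before to 50 bases after a RefSeq start site (build GRCm38.p6) and is written 5′ to 3′ on the gene's strand. Capitals mark matches, on either strand, to AGGAAG (the core bound by PU.1 and other ETS factors), TTNNGCAA (C/EBP factors), GAAANNGAA (interferon response), GGGNNTTCC (NF-kappaB), TGANTCA (AP-1), TGTGGT (RUNX factors) or TGATTTAT (HOXA9). The windows lie at chrX:106143025-106143324 on the plus strand (Tlr13), chr3:83841559-83841858 on the minus strand (Tlr2), chr9:106222348-106222647 on the plus strand (Tlr9) and chr9:119339969-119340268 on the minus strand (Myd88).
Tlr13: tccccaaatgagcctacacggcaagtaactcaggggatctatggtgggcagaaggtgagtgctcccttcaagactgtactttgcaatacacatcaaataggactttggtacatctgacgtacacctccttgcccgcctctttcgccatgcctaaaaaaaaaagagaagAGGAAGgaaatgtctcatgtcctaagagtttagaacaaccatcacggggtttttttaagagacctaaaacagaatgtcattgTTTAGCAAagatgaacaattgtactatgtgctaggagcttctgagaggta
Tlr2: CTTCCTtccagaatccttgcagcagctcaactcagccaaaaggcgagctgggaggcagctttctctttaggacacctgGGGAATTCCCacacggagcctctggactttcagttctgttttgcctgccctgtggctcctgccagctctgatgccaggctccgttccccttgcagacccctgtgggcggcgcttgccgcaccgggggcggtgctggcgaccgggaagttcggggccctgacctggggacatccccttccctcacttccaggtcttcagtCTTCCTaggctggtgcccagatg
Tlr9: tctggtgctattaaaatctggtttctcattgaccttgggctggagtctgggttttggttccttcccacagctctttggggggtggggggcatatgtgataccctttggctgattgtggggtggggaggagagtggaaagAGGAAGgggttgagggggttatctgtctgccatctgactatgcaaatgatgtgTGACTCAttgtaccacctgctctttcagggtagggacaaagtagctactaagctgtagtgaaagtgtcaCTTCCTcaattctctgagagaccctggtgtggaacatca
Myd88: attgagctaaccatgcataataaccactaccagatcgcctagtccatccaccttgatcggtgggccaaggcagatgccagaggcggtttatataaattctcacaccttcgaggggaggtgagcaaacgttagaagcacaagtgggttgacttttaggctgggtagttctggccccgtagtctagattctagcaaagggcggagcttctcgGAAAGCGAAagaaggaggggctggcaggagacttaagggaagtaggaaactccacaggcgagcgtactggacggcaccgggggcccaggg

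In the Tlr13 window the capitals are an AGGAAG match and, at the start site, a TTNNGCAA match. The Tlr2 window has 2 AGGAAG matches, read on the other strand, and 2 GGGNNTTCC matches that overlap on opposite strands. The Tlr9 window has 2 AGGAAG matches and 1 TGANTCA match, and the Myd88 window has 1 GAAANNGAA match. Windows of 7 members were searched, 9 windows in all, with 2 each for Tlr1 and Tlr6. None was searched for Tlr4, Tlr7 or Cd14. The AGGAAG core occurred in 6 of the 9 windows, against 35.4% of all 32851 windows of that length. TTNNGCAA occurred in 3 of 9 (Tlr13, Tlr6 and Tlr8; 10.8% of all windows) and GAAANNGAA in 3 of 9 (Myd88, Tlr6 and Tlr8; 8.56%). GGGNNTTCC was found in Tlr2 alone among the 9 (5.82% of all windows), TGANTCA in Tlr9 alone (7.81%) and TGTGGT in Tlr6 alone (16.8%). TGATTTAT had 0 matches in the 9 windows and occurred in 0.977% of all windows. Such matches describe letters in these windows and were not set against binding data.

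Signals below are linear array signals after quantile normalization, a step that gives the 4 arrays the same distribution. Values at or under the floor of 15.25, the median of all probe sets, were set to it before ratios were taken. Between 10313 and 10442 genes lay above the floor in each fraction. With 1 array per fraction no test across samples exists, so a difference was counted at a size of 2-fold or more. The only repeat is a gene's further probe set, where it has one, which gives the error of the probes and not that of sorts or animals. From such repeats, the SD of 1 probe set's log2 ratio was 0.48 between both ends (c-Kit+ high over c-Kit- low), 0.37 between both fractions of the middle gate, 0.30 for the NS-GFP step inside c-Kit+ cells and 0.37 for that inside c-Kit- cells. The sort marker Kit, the stem cell factor receptor, had signals of 6.58, 26.4, 690.2 and 479 in sort order, which here means c-Kit- low, then both middle gates (c-Kit- before c-Kit+), then c-Kit+ high, and Gnl3, which encodes nucleostemin, had 183, 584, 1109 and 1299. Hoxa9, by its brightest probe set, had 1882, 786, 673 and 509.7. The brightest probe set for Meis1 was under the floor in all 4 fractions. Whether these probe sets read the introduced copies, the cells' own transcripts or both was not tested. Their signals therefore do not give the level of the introduced genes.

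Of the endosomal receptors, Tlr13 and Tlr7 were highest in c-Kit- low and lowest in c-Kit+ high. Tlr13 had signals of 2187 (c-Kit- low) and 1066 (c-Kit- middle), followed by 200.025 (c-Kit+ middle) and then 66.9 at the high gate. Tlr7, by its brightest probe set, had 408, 203, 26.05 and 2.45 in the same order, the last of these under the floor. Both genes stood high in the c-Kit- fractions and were lower again in c-Kit+ high than at the c-Kit+ middle gate. Tlr9 took another course. Its signals were 15.6, 20.7, 16.0 and 37.9, so that 3 fractions lay close to the floor and c-Kit+ high alone stood clear of it. Tlr8 was under the floor on every array, with signals of 0.725, 4.53, 0.525 and 1, and therefore has no ratio. In the mouse reference annotation Tlr8 and Tlr7 are neighbours on chromosome X, and of this pair only Tlr7 gave a signal above the floor. Tlr13 is also on chromosome X, apart from that pair.

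Among the surface receptors, Tlr2, the shared partner of Tlr1 and Tlr6, had the widest range. Its signals were 1188, 560.1, 197 and 144 in sort order. Tlr1 had 393, 327, 158 and 153, a drop between the c-Kit- and the c-Kit+ fractions with little difference inside either pair. Tlr6, which lies next to Tlr1 on chromosome 5 in the annotation, had 154, 191, 95.8 and 73.5. After normalization Tlr6 was thus highest in c-Kit- middle, but as deposited its c-Kit- signals were 173.5 (low) and 171.7 (middle). Both of its c-Kit+ signals were under both of its c-Kit- signals. Tlr4, the lipopolysaccharide receptor, had 64, 53.5, 48.95 and 28.1 by its brightest probe set. Its signals were low throughout, and its first 3 fractions differed little.

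Cd14, the co-receptor that delivers lipopolysaccharide to Tlr4, had signals of 1892, 726, 247 and 213. Its ends lay further apart than those of Tlr4, its partner in binding. Myd88 had 862, 515, 238.5 and 246, with both c-Kit+ fractions almost level. Of the 9 members above the floor in any fraction, 6 had signals that never increased in sort order (Tlr7, Tlr13, Tlr1, Tlr2, Tlr4 and Cd14), against 17.1% of the 11900 genes above the floor in any fraction. Tlr4 is among the 6 only by its brightest probe set after normalization, since as deposited that probe set had 48.4 and 48.6 at the middle gates, and a further one went from 37.8 to 38.6 between the c-Kit+ fractions. In these bulk fractions, fewer cells carrying a transcript and less of it per cell cannot be told apart.

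**Figure D1:**
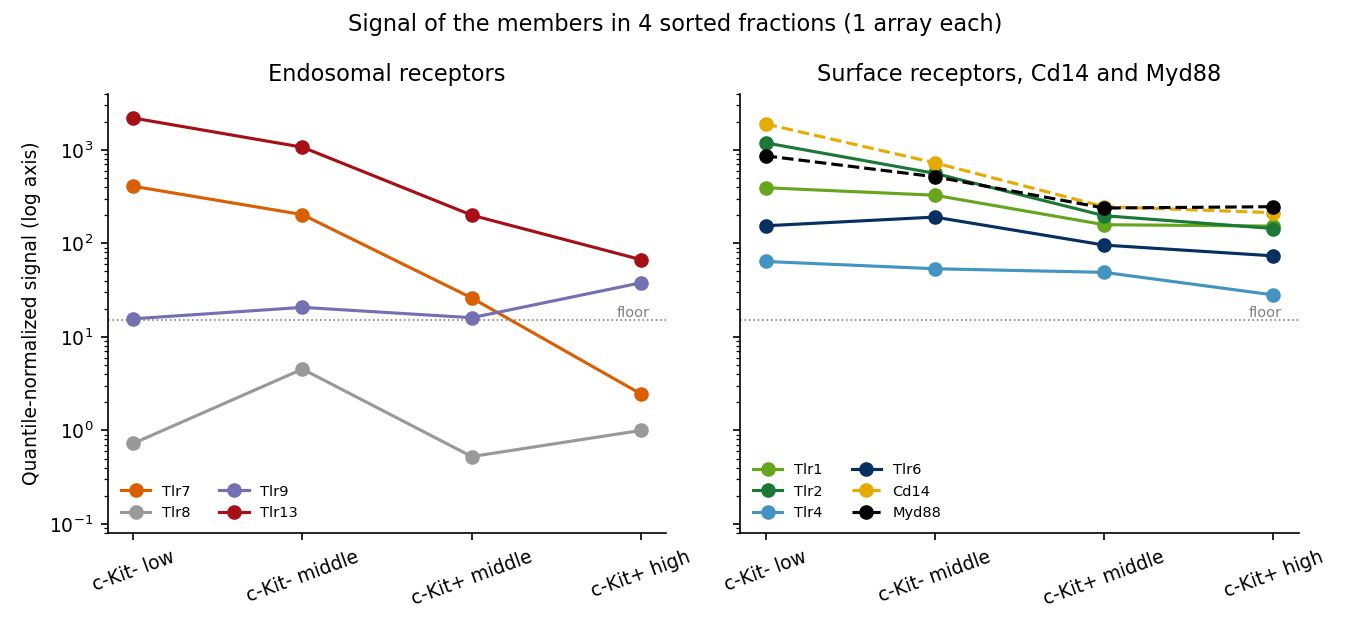
Quantile-normalized signal on a log axis for each member's brightest probe set in the 4 fractions, with 1 array per point and a dotted line at the floor of 15.25. Tlr13 went from 2187 to 66.9 and Tlr7 from 408 to under the floor, Tlr9 reached 37.9 in c-Kit+ high, and the lines of Tlr1, Tlr4 and Tlr6 are flatter than that of Tlr2.

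Both ends of the sort were compared first, since they differ in both markers. Of the 9 members with a ratio, 8 were at least 2-fold lower in c-Kit+ high, against 13.6% of the 11284 genes measured, and 1, Tlr9, was at least 2-fold higher, against 16.1%. Tlr13 was 32.7-fold lower (log2 ratio -5.03) and had 27 of all genes measured below it. Tlr7 was at least 26.7-fold lower (log2 ratio -4.74), a bound set by the floor. Cd14 was 8.90-fold lower (log2 ratio -3.15) and Tlr2 8.25-fold (-3.04). These 4 ratios lay under the lowest 5% of all genes, which ended at a log2 ratio of -1.89. Myd88 was 3.50-fold lower, at percentile 5.49 of all genes. Tlr1 was 2.57-fold lower, Tlr4 2.28-fold and Tlr6 2.10-fold, at percentiles between 8.92 and 12.6, so these 3 lie inside the main body of the distribution. Tlr9 was 2.43-fold higher (log2 ratio 1.28), from 15.6 to 37.9, and with the scaling as deposited it fell just short of 2-fold.

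Set side by side, the endosomal and surface receptors differed mainly in spread. The 3 endosomal receptors with a ratio had a median log2 ratio of -4.74, which is the bound of Tlr7, and reached up to 1.28 (Tlr9). Tlr13 was at -5.03, and its order against Tlr7 is not settled, since Tlr7 was at -6.75 with a floor at the 25th percentile and at -7.38 without one. The 4 surface receptors had a median of -1.28 and ran from -3.04 (Tlr2) to -1.07 (Tlr6), whereas the median of all genes was 0.09. The endosomal class thus holds both the largest decreases among the members and the single increase, together with Tlr8, which was not detected above the floor. A median over 3 genes, 1 of them a bound, depends on how the floor is set and was -2.28 without a floor, when Tlr8 enters.

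The upper end was also compared with the other c-Kit- fraction, at the middle gate. Then 7 of 9 members were at least 2-fold lower in c-Kit+ high (6.52% of 11184 genes) and 0 were higher (4.9% of genes). Tlr13 was 15.9-fold lower, Tlr7 at least 13.3-fold, Tlr2 3.89-fold, Cd14 3.42-fold, Tlr6 2.60-fold, Tlr1 2.14-fold and Myd88 2.09-fold. Tlr4 (log2 ratio -0.93) and Tlr9 (0.87) fell short of 2-fold. The surface median was -1.24 and the endosomal median -3.73.

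At the middle NS-GFP gate, c-Kit+ cells were then set against c-Kit- cells. Of 9 members, 6 were at least 2-fold lower in the c-Kit+ than in the c-Kit- cells, against 5.29% of 11080 genes, and 0 were higher, against 3.57%. Tlr7 was 7.78-fold lower (log2 ratio -2.96) and Tlr13 5.33-fold (-2.41). For Tlr7 this step held 62.4% of its whole log2 difference along the sort, itself cut short by the floor, and for Tlr13 48.0%. Cd14 was 2.94-fold lower, Tlr2 2.84-fold, Myd88 2.16-fold and Tlr1 2.07-fold. Tlr6 was 1.99-fold lower, just short of the threshold. Tlr4 (log2 ratio -0.13) and Tlr9 (-0.37) differed by no more than the SD of 1 probe set. The medians were -2.41 for the endosomal and -1.02 for the surface receptors, beside 0.02 for all genes. With the scaling as deposited, 4 members were past 2-fold, and Tlr1 (log2 ratio -0.88) and Myd88 (-0.94) were not.

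The NS-GFP level was compared within each c-Kit class. In c-Kit- cells, 4 of 9 members were at least 2-fold lower at the middle than at the low gate, against 5.46% of 11062 genes, and 0 were higher, against 6.66%. They were Cd14 (2.61-fold), Tlr2 (2.12-fold), Tlr13 (2.05-fold) and Tlr7 (2.01-fold). Myd88 had a log2 ratio of -0.74, Tlr1 and Tlr4 of -0.27 and -0.26, Tlr9 of 0.41 and Tlr6 of 0.31. The value for Tlr6 was -0.02 with the scaling as deposited, so its sign is not settled. Tlr7, Tlr13 and Tlr2 exceeded 2-fold by little here, and their log2 ratios lay between -1.01 and -1.08.

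In c-Kit+ cells, Tlr13 alone among 9 members was at least 2-fold lower at the high than at the middle gate, against 1.01% of 11038 genes, and Tlr9 alone was higher, against 1.02%. Tlr13 was 2.99-fold lower (log2 ratio -1.58), with 6 genes of all measured below it. Tlr9 was 2.36-fold higher (log2 ratio 1.24), at percentile 99.7. Tlr4 had a log2 ratio of -0.80 by its brightest probe set and Tlr7 one of at most -0.77, since the high gate was under the floor. Tlr2 (-0.46), Tlr6 (-0.38) and Cd14 (-0.21) were lower, and Tlr1 (-0.05) and Myd88 (0.05) nearly level. The comparisons share arrays, so their values are given side by side and were not correlated.

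The authors' scaling here is that of the first deposited table. It moved the median log2 ratio of all genes from 0.09 to -0.05 at the ends of the sort, from 0.02 to 0.16 at the middle gate and from 0.03 to -0.25 within c-Kit- cells. Of the genes past 2-fold, the share that was higher was then 43.2% at the ends (54.1% after quantile normalization), 56.6% at the middle gate (40.3%), 38.9% within c-Kit+ cells (50.2%) and 24.2% within c-Kit- cells (55.0%), and 20.9% within c-Kit+ cells in the second deposited table. Relative to the median of all genes, Tlr13 was at -5.11 at the ends of the sort under the scaling of the first table, Tlr7 at -4.82, Tlr2 at -3.09 and Cd14 at -3.16.

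**Figure D2:**
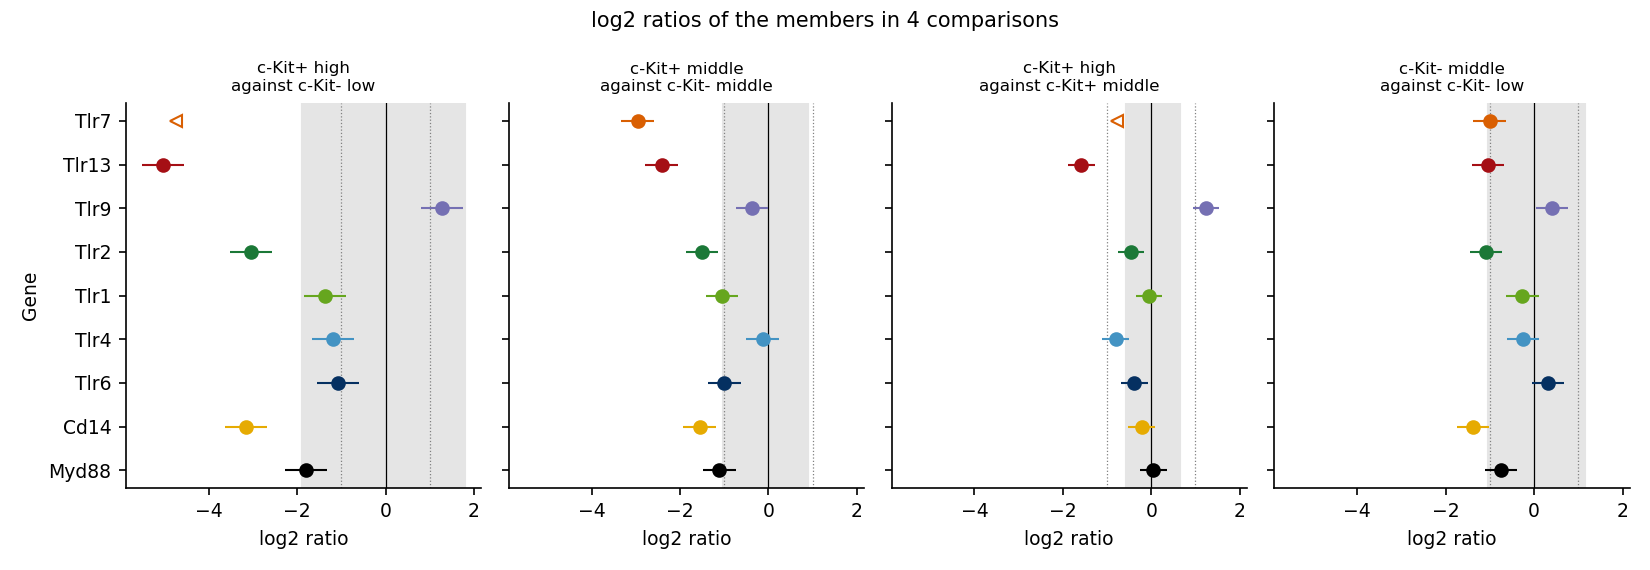
log2 ratio of each member with a ratio in 4 comparisons, with bars of 1 SD of a single probe set, dotted lines at 2-fold and a grey band from the lowest to the highest 5% of all genes. Open triangles are bounds set by the floor. Tlr13 lies clearly left of the band in 3 panels and at its edge in c-Kit- cells, and Tlr9 lies right of it in the NS-GFP step of c-Kit+ cells (log2 ratio 1.24).

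Repeat probe sets were present for Tlr7 and Tlr4. For Tlr7 the 3 probe sets ran the same way. Besides the brightest, 1 had signals of 104, 39.6, 9.4 and 9.13 and the other 72.4, 29.3, 14.45 and 3.38 in sort order. Each was past 2-fold between the c-Kit- fractions (2.01-fold, 2.64-fold and 2.47-fold) and between the ends of the sort, where each fold is a bound (at least 26.7-fold, 6.85-fold and 4.75-fold). At the middle gate 2 of the 3 were past 2-fold, and the remaining one was at least 1.92-fold lower.

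For Tlr4 the probe sets did not settle the same answer. The second brightest had signals of 51.7, 42.4, 37.8 and 38.6 and was 1.34-fold lower at the upper than at the lower end, against 2.28-fold for the brightest. It was level between the c-Kit+ fractions (log2 ratio 0.03), where the brightest had -0.80. Another was above the floor in c-Kit- low alone (17.9), and the last was under the floor on every array. The count of 8 lower members at the ends of the sort therefore includes Tlr4 by 1 of its probe sets. The remaining 8 members have 1 probe set each.

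**Figure D3:**
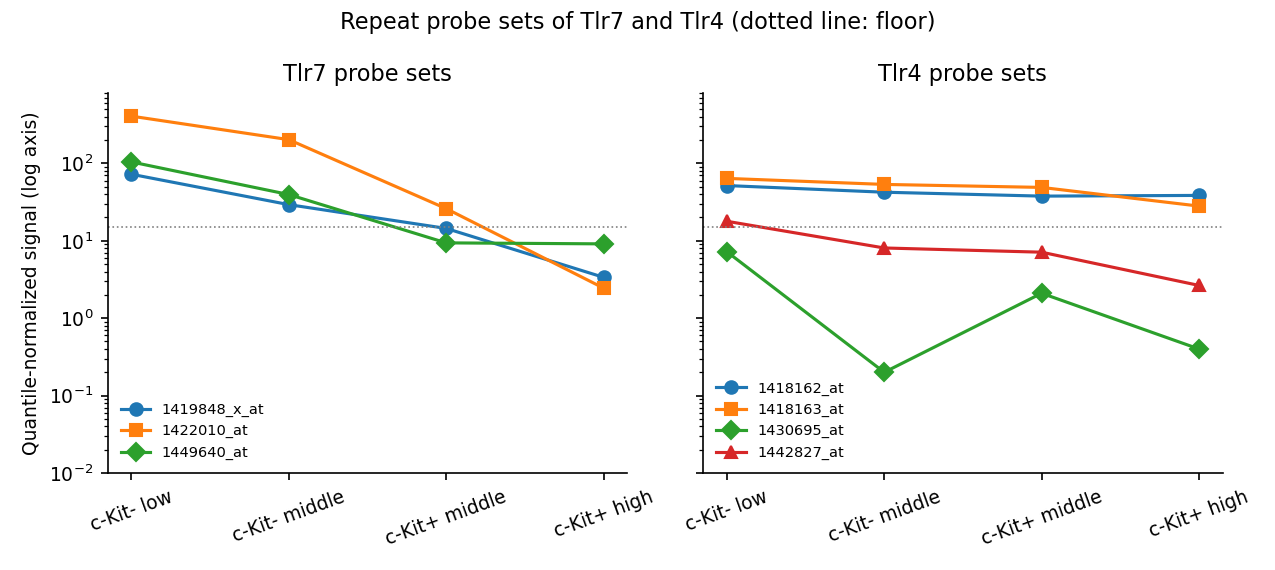
Quantile-normalized signal on a log axis for the 3 probe sets of Tlr7 and the 4 of Tlr4 in the 4 fractions, with the floor dotted. The Tlr7 lines descend together, from between 72.4 and 408 in c-Kit- low to under the floor in c-Kit+ high, and both Tlr4 probe sets above the floor in all fractions stay between 28.1 and 64.

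Other genes of the pathway were taken from a list of 61, of which 55 were on the array. At the ends of the sort, 24 of the 48 with a ratio were at least 2-fold lower in c-Kit+ high and 1 was higher (13.6% and 16.1% of all genes). Their median log2 ratio was -0.97, against 0.09 for all genes. All 4 measured endosomal proteases were lower, among them Lgmn, legumain (at least 9.64-fold), and Ctss, cathepsin S (4.76-fold), both of which cut endosomal receptors into their active form. Of the transcription factors, Irf5, which acts downstream of Myd88, was 9.23-fold lower, with signals of 1416, 512, 161 and 153 along the sort. Irf7, a factor for type I interferon, was at least 8.32-fold lower.

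Of the 9 target genes with a ratio, 7 were at least 2-fold lower. Socs3, a feedback inhibitor of cytokine signalling, was at least 33.9-fold lower, Cxcl2, a neutrophil chemokine, 15.1-fold, and Nfkbiz, a nuclear IkappaB protein, 9.28-fold. The cytokine genes Il6, Il10, Il12b and Ifnb1 were under the floor in all 4 fractions. Adaptors and kinases differed less, with 4 of 14 lower (median -0.58), and of 6 negative regulators 2 were lower (median -0.62). Of 10 co-receptor and trafficking genes 3 were lower. Unc93b1, the chaperone that carries nucleic acid receptors to endosomes, had signals of 1203, 551, 474 and 358 and was 3.36-fold lower. Lbp, lipopolysaccharide-binding protein, went the other way, with 287, 461, 930 and 765 (2.66-fold higher). Of the receptors outside the main set, Tlr5 was above the floor in c-Kit- low alone (38.7), and Tlr3 and Tlr12 were under it in all 4 fractions.

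The other comparisons had fewer genes past 2-fold in the list and among all genes alike. At the middle gate 7 of 46 were lower and 1 higher (median -0.37), against 5.29% and 3.57% of all genes, namely Socs3 (log2 ratio of at most -3.325), Cxcl2 (7.10-fold), Lgmn (at least 3.97-fold), Irf5 (3.18-fold), Ctss, Nfkbiz and Ccl3, with Lbp 2.02-fold higher. Within c-Kit- cells 14 of 48 were lower and 0 higher (median -0.47), against 5.46% and 6.66% of all genes, led by Irf7 (4.09-fold), Socs3 (3.38-fold), Il1b, a cytokine (3.26-fold), and Irf5 (2.76-fold). Within c-Kit+ cells 1 of 43 was lower, Nfkbiz (2.13-fold), and 0 were higher (median -0.09), against 1.01% and 1.02% of all genes. Between c-Kit+ high and the c-Kit- middle gate, 9 of 45 were lower and 0 higher (median -0.47), against 6.52% and 4.9% of all genes.

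**Figure D4:**
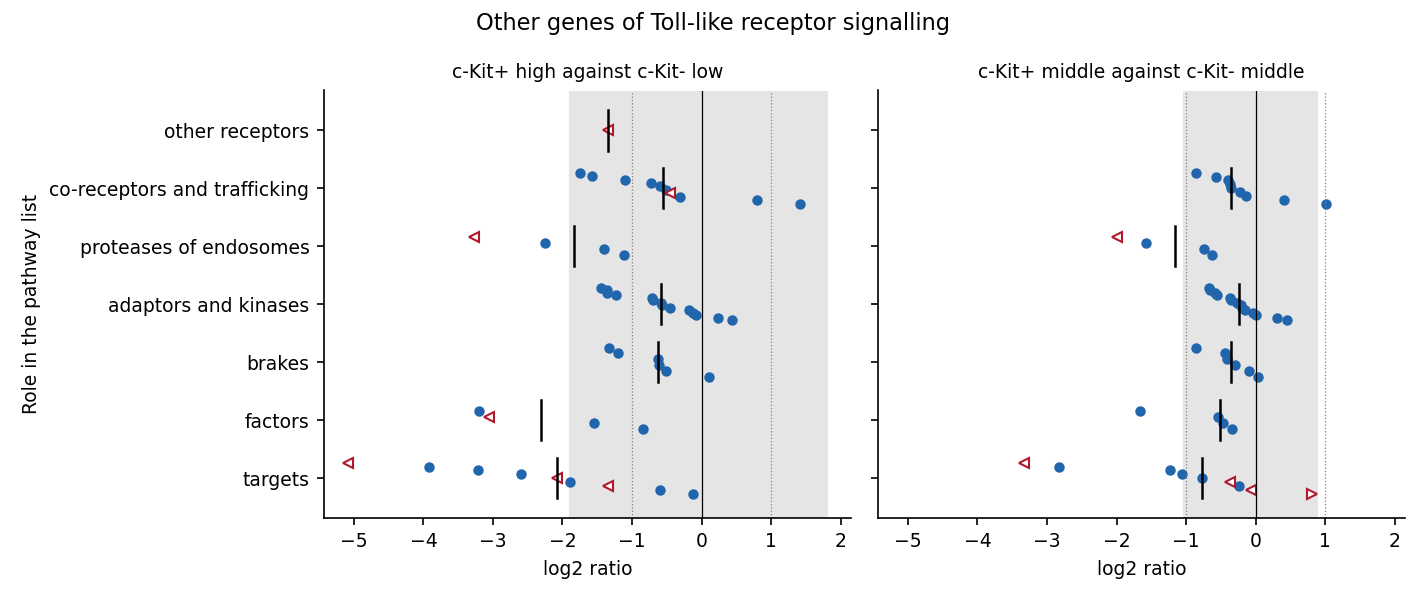
log2 ratios (horizontal axis) of the other pathway genes by role at the ends of the sort and at the middle gate. Each point is a gene, open triangles are bounds, short black lines are medians, dotted lines mark 2-fold and the grey band spans the lowest to the highest 5% of all genes. Targets, factors and endosomal proteases reach furthest left at the ends of the sort, with Socs3 at a log2 ratio of at most -5.08.

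Genes with the most similar course were sought by the Euclidean distance between log2 signals over the 4 fractions, each centred on its mean, among 8846 genes above the floor in the same fractions. Nearest to Tlr13 were Lsp1, a leukocyte actin-binding protein (distance 0.46), Camk1d, a calmodulin-dependent kinase (0.49), and St3gal5, a sialyltransferase (0.63). Nearest to Tlr2 were Ypel3 (0.01), Itgb2, the beta-2 integrin chain (0.12), and Ssh2, a cofilin phosphatase (0.15), with Itgb2 signals of 4318, 1865, 699 and 536.5. Nearest to Myd88 were Plcl2 (0.02), Rassf4 (0.05) and Fam214a (0.06). Tlr13 had no neighbour as close as those of Tlr2 or Myd88. With 4 points a course, these distances are descriptions.

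Markers of other cell types moved along the same sort. The summed signal of 8 monocyte and macrophage markers was 18514, 15013, 9576 and 8152 in sort order, with 5 of 8 at least 2-fold lower at the upper end, where 13.6% of all genes were lower and 16.1% higher. That of 9 neutrophil markers was 10465, 5343, 4044 and 4025, with 6 of 9 lower. At the middle gate 4 of 8 and 4 of 9 were lower in c-Kit+ cells, against 5.29% of all genes. Csf1r, the macrophage growth factor receptor, stayed well above the floor in all fractions (6871, 5210, 2112 and 1388). In each c-Kit+ fraction 7 of the 8 monocyte and macrophage markers were above the floor. Itgam (119.8, 64.2, 13.4 and 16.8) was under it in c-Kit+ middle and Fcgr1 (26.9, 20.8, 18.2 and 8.8) in c-Kit+ high. F13a1 differed little (5831, 5796.5, 5241 and 4773). Markers of dendritic cells and MHC class II had sums of 3350, 517, 182.5 and 187 (5 of 7 lower), and plasma cell markers 5480, 656, 26.0 and 98.0 (2 of 3 lower). Immature myeloid markers went the other way, with sums of 11514, 16207, 30518 and 30923 and 5 of 8 higher. One of those 5 is the sort marker Kit, so its difference follows from the gates. Prtn3 (4378.5, 4929, 5114 and 5184), Ctsg (5229, 7485, 8153 and 9037) and Cd34 (389, 459, 931 and 656) fell short of 2-fold at the ends of the sort. The part of these cell types in the receptor values was not tested.

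Single genes of other lineages ran in different ways. Ccl5, of T and NK cells, had 219 in c-Kit- low and was under the floor elsewhere, whereas Nkg7, of the same list, had 36.7, 7.38, 26.45 and 42.3 in sort order. Alas2, of erythroid cells, had 52.0 in c-Kit- low and was under the floor elsewhere. Of the same list, Slc4a1 had 34.7, 15.35, 8.7 and 5.275, and Klf1 had 17.55, 15.1, 16.0 and 17.4. Epor was above the floor in c-Kit- middle alone (17.9). Xist, which silences an X chromosome, had 75.9 in c-Kit- low and was under the floor in the other 3 fractions. Defining markers of T cells (Cd3d, Cd3e and Cd3g), of NK cells (Ncr1) and of B cells (Cd79a and Ms4a1) were under the floor in all 4 fractions. Of the other B cell markers, Cd79b had 162, 163, 143 and 98.9, Cd22 had 131, 16.5, 11.5 and 4.3, and Pax5 was above the floor in c-Kit- low alone (19.35). The c-Kit- middle array also held such signals. Igha, of plasma cells, had 608.9 there, against 11.8 for c-Kit+ cells of that gate and 65.4 for c-Kit+ high. H2-Aa, of MHC class II, had 254, against 18.9 and 51.2. H2-Eb1 (82.95) and Cd74 (89.3), of the same list, were under the floor in both c-Kit+ fractions. H2-Ab1, also of that list, went the other way at the middle gate, with 386, 60.5, 103.5 and 99.0 in sort order. The summed T and NK cell signal was 293, 31.2, 31.4 and 62.3 over 6 markers, that of 5 B cell markers 329, 195, 190.3 and 122.5, and that of 4 erythroid markers 112, 49.9, 28.55 and 25.2. Megakaryocyte markers had sums of 56.5, 45.7, 53.95 and 65.75. Of 5 plasmacytoid dendritic cell markers, the sums were 5803, 5036, 3739 and 3377. Most of these sums came from Irf8 (4470, 3810, 3056 and 2776) and Tcf4 (1200, 1135, 596 and 523). Bst2 had 110, 73.9, 68.35 and 68.1. Siglech, which marks these cells, had 20.05 in c-Kit- low and was under the floor elsewhere, and Ccr9 was under it throughout.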

How the data were processed

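RNA of 4 sorted fractions was measured on 1 Affymetrix mouse array each, per the labels. GCOS 1.2, MAS5 and R 3.0.2 are listed in the submitters' processing notes, with no role stated. The first deposited table gives a linear intensity per probe set (45101). The other table, also deposited, is on a log2 scale, covers 17419 probe sets and equals log2 of the first plus 1 constant per array.

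Control probe sets (64) were left out. Trimmed means of the arrays differed by 21.5%, over the 10% allowed, so intensities were quantile normalized, floored at the 50th percentile and taken to log2 (Python 3.11.15, numpy 2.4.6, pandas 2.3.3). Probe sets with 1 listed gene were kept, and the brightest stood for its gene. Ratios leave out genes at the floor on both arrays. The code was tested on simulated data. With 1 array per fraction no test could be run, and the number of arrays limits the precision. The members and lists were chosen with earlier results of these data known. Named genes were all members, Kit and Gnl3, up to 4 pathway genes per direction and comparison, largest first, and the 3 genes nearest in course to the receptor of each class with the widest range at this floor (Tlr13, with Tlr7 a bound, and Tlr2) and to Myd88, predicted and clone-named genes passed over. All other named genes were chosen after their values were seen: the named markers, Irf5, Irf7 and Ctss at the ends of the sort, Ctss, Nfkbiz and Ccl3 at the middle gate, and Unc93b1, Tlr3, Tlr5, Tlr12 and the cytokines under the floor. Promoters are RefSeq's, matched by symbol.

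Alternatives were the authors' scaling, the second table, floors at the 25th and 75th percentiles, no floor, the mean of a gene's probe sets, and, for the lower end of the sort, the c-Kit- middle array.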

Additional observations from a re-analysis of the deposited data

Results flagged for a closer look

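Tlr6 and Myd88 had NS-GFP steps of opposite sign in the c-Kit classes, which was not tested, since each step rests on 2 arrays. From the middle to the high gate in c-Kit+ cells, Tlr6 had a log2 ratio of -0.38, and from the low to the middle gate in c-Kit- cells one of 0.31. Under the authors' scaling the second was -0.02, so both steps then had the same sign. Myd88 had a log2 ratio of 0.0475 in c-Kit+ cells and of -0.74 in c-Kit- cells. The first is under the SD of 1 probe set (0.30), and the second is over it (0.37).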

How the results depend on the processing

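Across the alternatives, between 6 and 8 members were at least 2-fold lower at the ends of the sort, 4 to 7 at the middle gate, 1 to 2 within c-Kit+ cells and 3 to 5 within c-Kit- cells. The surface median stayed between -1.51 and -1.22 at the ends, -1.05 and -0.87 at the middle gate, -0.47 and -0.25 within c-Kit+ cells and -0.59 and -0.23 within c-Kit- cells. Of the counts and medians recomputed under an alternative, 111 moved by less than the probe error (counts by at most 1.5 times) and 41 by more. At the ends of the sort, 0 members were higher under the authors' scaling, in the second table, for a 75th percentile floor and against the c-Kit- middle array. Tlr9, the only member that was higher, is not in the second table and has no ratio at the 75th percentile floor, so neither setting tells of it. The endosomal median at the ends was -3.27 with the floor at the 75th percentile, -2.28 without a floor, -3.25 with the mean of probe sets and -3.73 with c-Kit- middle. Pathway genes that were higher numbered 3 for a 25th percentile floor and 3 without a floor. At the middle gate the endosomal median was -1.39 with the floor at the 25th percentile, where Tlr8 enters, -1.73 at the 75th and -1.76 with the mean of probe sets. Higher pathway genes numbered 3 at the 25th percentile, 6 without a floor and 0 for the probe set mean, and lower ones 4 at the 75th percentile. Within c-Kit+ cells the endosomal median was -1.71 in the second table, where Tlr13 is the sole endosomal receptor, -1.58 with the floor at the 25th percentile, -0.33 without a floor and -0.26 for the probe set mean. Without Tlr9, an alternative chosen after seeing the data, it was -1.18. There 0 members were higher in the second table and at the 75th percentile, where Tlr9 has no ratio, and 2 were lower at the 25th percentile and without a floor. Pathway genes within c-Kit+ cells were 3 lower and 2 higher at the 25th percentile, 6 lower and 2 higher without a floor, 0 lower at the 75th percentile and with the mean of probe sets, and 1 higher in the second table. Within c-Kit- cells the endosomal median was -0.38 at the 25th percentile and -0.30 without a floor, where 1 member was higher. Lower pathway genes there numbered 8 in the second table and 7 at the 75th percentile, and 1 was higher at the 25th percentile, without a floor and for the probe set mean. Where Tlr8 enters or the second table holds fewer genes, the alternative's construction changes the members, and other causes were not tested. Of the members' ratios, 188 moved by less than the probe error and 19 by more, and none past 2-fold changed sign. For Tlr7 at the ends of the sort they ran from -7.38 without a floor to -2.06 for a 75th percentile floor, and for Tlr4 the mean of probe sets gave -0.46 and the second table -0.73. The number of all genes past 2-fold depended on the floor, between 1047 and 4159 higher and 952 and 3612 lower at the ends, 150 and 2592 higher and 285 and 2773 lower at the middle gate, 10 and 2296 higher and 12 and 2224 lower within c-Kit+ cells, and 372 and 3009 higher and 283 and 2693 lower within c-Kit- cells. No paired analysis was possible because each fraction has 1 array. Signals of Tlr9 and Tlr4 lie close enough to the floor that 1 array per fraction limits what can be said of them.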
